A study of Mus musculus with 48 samples.

Results

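The 9 genes described here, Cux1, Cux2, Rorb, Bcl11b, Tbr1, Fezf2, Tle4, Foxp2 and Neurod1, encode transcriptional regulators used as markers of the layers of the cerebral cortex. They were taken by gene symbol, and they are 9 of 55439 genes in all tables together. Cux1, Cux2 and Rorb (3 genes) were treated as upper layer factors and Bcl11b, Tbr1, Fezf2, Tle4 and Foxp2 (5 genes) as deep layer factors, with Neurod1, a factor of neuronal differentiation, kept apart. RNA sequencing of mouse cortex gave values in FPKM, fragments scaled to exon length and to the mapped fragments of a library. Ctrl and mG-cKO cortex was compared at postnatal ages P1 and P45 (3 libraries a group) and at P7 and P14 (2 libraries a group). The P21 groups, of 3 libraries each, were Ctrl, mG-cKD, mG-cKO, and both mutant genotypes with RTI. CT and VPA cortex at P1 (3 libraries each) and 3 NPC libraries, also given as postnatal day 1, had tables of their own. All 9 genes were present in the age, P21 and NPC tables, while Rorb and Neurod1 were the 2 members in the CT and VPA table and the other 7 were not analysed there. In the titles Ctrl appears as wild type, mG-cKD as heterozygous and mG-cKO as mutant. The labels used here spell out neither mG, RTI, VPA, CT nor NPC, and name no altered gene, Cre driver, strain or sex, so the loss of the targeted gene could not be checked. Since nothing says that replicates are separate animals, the p-values rest on a spread between libraries that may be technical.

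The mammalian neocortex is built in layers, and its excitatory neurons are born deep layers first. Fezf2 and Bcl11b (CTIP2) specify neurons of layer 5 that project below the cortex, Tbr1, Foxp2 and Tle4 mark layer 6 neurons that project to the thalamus, and Cux1 and Cux2 mark neurons of layers 2 to 4 that project within the cortex. Rorb marks layer 4, the main target of thalamic input. Several of these factors repress one another as layer identities separate. In bulk cortex a lower value can mean fewer cells of a type or less RNA per cell, and these cannot be told apart.

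Libraries differed in a way the groups do not explain. In 23 of 44 libraries FPKM times exon length came in whole read steps, and in the other 21 it did not, so that the depth of the latter is unknown. The second set held replicate 3 of both genotypes at P1 and P45, all P21 libraries, 1 VPA library and 1 NPC library. Layer factors followed this split within a group: replicate 3 of Ctrl at P1 gave 5.85 times the mean of replicates 1 and 2 for Cux1 and 1.74 times for Tbr1, and replicate 3 of Ctrl at P45 gave 0.26 times for Rorb and 2.75 times for Fezf2. Values within each set therefore stand beside the pooled ones for P1 and P45. Ages and genotypes were compared within a table, and levels were set across tables only as descriptions.

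On the mm10 assembly, with the GENCODE M21 annotation, all 9 are protein-coding genes. Cux1 lies at chr5:136248135-136567490, Cux2 at chr5:121856366-122050102 and Rorb at chr19:18930605-19111196, all on the minus strand. Bcl11b lies at chr12:107910403-108003602 and Fezf2 at chr14:12342094-12348189 on the minus strand, and Tbr1 at chr2:61802930-61814114 on the plus strand. Tle4 lies at chr19:14448150-14598051 and Neurod1 at chr2:79452521-79456751 on the minus strand, and Foxp2 at chr6:14901349-15441977 on the plus strand. RefSeq promoters of GRCm38.p6 were found for 8 of the 9 genes, 11 start sites in all. The 250 bases before the start are shown, written on the gene's strand, for 3 of the genes, as examples: Cux2 at its second start (chr5:122047826-122048075, minus), Tbr1 (chr2:61804203-61804452, plus) and Rorb at its first start (chr19:19111197-19111446, minus).
Cux2: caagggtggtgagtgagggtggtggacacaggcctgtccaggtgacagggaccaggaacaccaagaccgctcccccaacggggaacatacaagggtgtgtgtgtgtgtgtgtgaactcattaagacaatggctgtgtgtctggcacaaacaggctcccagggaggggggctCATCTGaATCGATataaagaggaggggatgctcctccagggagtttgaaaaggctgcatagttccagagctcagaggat
Tbr1: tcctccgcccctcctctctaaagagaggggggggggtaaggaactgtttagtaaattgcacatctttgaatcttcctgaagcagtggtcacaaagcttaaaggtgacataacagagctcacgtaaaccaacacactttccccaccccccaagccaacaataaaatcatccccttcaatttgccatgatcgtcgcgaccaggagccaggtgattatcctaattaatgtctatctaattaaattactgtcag
Rorb: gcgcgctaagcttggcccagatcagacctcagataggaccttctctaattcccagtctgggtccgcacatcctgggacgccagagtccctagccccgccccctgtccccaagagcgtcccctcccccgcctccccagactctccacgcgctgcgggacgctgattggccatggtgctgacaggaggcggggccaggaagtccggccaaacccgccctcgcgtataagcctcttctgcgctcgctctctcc
The capitals in Cux2 mark the 2 motifs found, an E box (CAGATG, present here as its reverse complement), the kind of site that Neurod1 and its relatives bind, and the Cut site ATCGAT, the kind that Cux proteins bind. The window of Cux2 overlaps an annotated exon of Cux2, that of Tbr1 an annotated exon of Tbr1, and that of Rorb overlaps no annotated exon. Of 32851 promoter windows of this length, counting both strands, 14.4% held the E box and 0.728% the Cut site. Other motifs searched on both strands were the T-box site TCACACC (3.33% of windows), the forkhead site TGTTTAC (3.17%) and the ROR site TAGGTCA (2.23%). The forkhead site was in 1 of the 11 member windows, at Cux1, and the other 2 were in 0 of 11. A match in these letters is a description and not a binding site. GC content was 55.2% for the Cux2 window, 45.2% for Tbr1 and 66% for Rorb, against a median of 52.4% over all windows. The window of the first Cux2 start (chr5:122049852-122050101), not shown, had 80% and held none of the motifs searched.

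In Ctrl cortex 4 of the 5 deep layer factors fell from P1 to P45 and 1 upper layer factor, Rorb, rose. Between P1 and P45 Bcl11b, Fezf2, Foxp2, Tle4 and Neurod1 were lower and Rorb was higher by limma with Benjamini-Hochberg adjustment over 19733 genes, which is 6 of 9 members against 36.6% of all genes (17.2% higher and 19.4% lower). The deep layer factors had a median log2 difference of -0.95 and the upper layer factors of -0.01, against 0.04 for all genes. All differences and standard errors are of log2(FPKM + 1), which understates the change of low genes such as Foxp2 and Rorb.

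Bcl11b, a zinc finger factor of layer 5 neurons that also marks striatal neurons, stood at 40.5, 41.5 and 46.0 FPKM in the Ctrl libraries at P1. It was 20.1 and 22.8 at P7, 13.5 and 12.5 at P14, and 16.5, 17.3 and 12.6 at P45. The P1 libraries were all above every later library, and the lowest were both P14 libraries and replicate 3 of P45. Bcl11b fell from P1 to P7 (log2 difference -0.96 ± 0.14 SE, limma, adjusted p = 0.00113), from P7 to P14 (-0.68 ± 0.15, adjusted p = 0.011) and from P1 to P45 (-1.41 ± 0.12, adjusted p = 6.34e-07). In the 2 library sets taken apart, the difference from P1 to P45 was -1.23 in replicates 1 and 2 and -1.78 in replicate 3. The fall from P1 to P7 missed the threshold when each library was scaled to the same total (adjusted p = 0.129). The fall from P7 to P14 missed it after that scaling (adjusted p = 0.276), after median ratio scaling (adjusted p = 0.0701), and without Ctrl replicate 2 at P7 (adjusted p = 0.135) or Ctrl replicate 1 (adjusted p = 0.0571) or 2 at P14 (adjusted p = 0.109). Summed FPKM of 6 striatal markers ran from 68.8 to 100.5 in Ctrl at P1, from 46.0 to 67.4 at P7, from 129.8 to 180.4 at P14 and from 106.6 to 247.5 at P45, and its part in the result was not tested.

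Fezf2, the zinc finger factor that directs subcerebral projection neurons, gave 18.8, 19.2 and 30.5 FPKM in Ctrl at P1 and 20.6 and 19.9 at P7. It gave 13.6 and 12.6 at P14 and 6.46, 8.81 and 20.97 at P45. Replicate 3 was the highest library at both P1 and P45, yet replicate 3 at P45 lay below replicate 3 at P1, and replicates 1 and 2 at P45 lay below all earlier libraries. Fezf2 fell from P1 to P45 (difference -0.99 ± 0.36, limma, adjusted p = 0.0478), with a difference of -1.23 in replicates 1 and 2 and of -0.52 in replicate 3. The call was lost without any 1 of 5 of the 6 libraries, all but Ctrl replicate 3 at P45, with adjusted p of 0.0648 and 0.0679 without replicates 1 and 2 at P1, 0.148 without replicate 3 at P1, and 0.208 and 0.152 without replicates 1 and 2 at P45. Where depth is known, Fezf2 rests on 347 to 1795 reads per library.

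Tbr1, the T-box factor of layer 6, gave 32.0, 30.5 and 54.4 FPKM in Ctrl at P1, 21.5 and 21.9 at P7, 20.7 and 21.5 at P14, and 28.1, 26.1 and 46.5 at P45. Every P7 and P14 library lay below every P1 and P45 library, so its lowest levels were at the middle ages. The differences were -0.77 ± 0.32 from P1 to P7 (limma, adjusted p = 0.206) and -0.21 from P1 to P45, not called. In the fit without replicate 3 at P1 and P45, Tbr1 was lower at P7 than at P1 (difference -0.51, adjusted p = 6.2e-05) and higher at P45 than at P14 (difference 0.34, adjusted p = 0.000329), in a fit that called 39.8% and 67% of all genes. With the replicate number as a block the P45 against P1 difference of -0.21 was also called (adjusted p = 0.0149, 67.9% of all genes called).

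Tle4, a corepressor of the Groucho family found in layer 6, gave 23.1, 27.1 and 23.0 FPKM in Ctrl at P1, 17.2 and 15.2 at P7, 15.7 and 14.8 at P14, and 17.3, 17.8 and 13.4 at P45. All P1 libraries were above all later ones. Tle4 fell from P1 to P45 (difference -0.57 ± 0.14, limma, adjusted p = 0.00645), and kept the call without any 1 library, though not with scaling to equal totals (adjusted p = 0.176) or by median ratio (adjusted p = 0.116). Foxp2, a forkhead factor of layer 6 and also of striatal neurons, gave 3.65, 3.77 and 8.12 FPKM at P1 against 1.498 and 1.58 at P7. It stayed low at P14, with 1.38 and 1.13, and at P45, with 1.77, 1.88 and 2.51. The 3 libraries at P1 were the highest of the 10 Ctrl libraries. Foxp2 fell from P1 to P7 (difference -1.21 ± 0.32, limma, adjusted p = 0.0394) and from P1 to P45 (difference -0.95 ± 0.29, adjusted p = 0.0189). The fall to P7 lost its call without Ctrl replicate 3 at P1 (adjusted p = 0.126), or without Ctrl replicate 1 (adjusted p = 0.255) or 2 at P7 (adjusted p = 0.206). The fall to P45 lost its call without Ctrl replicate 3 at P1 (adjusted p = 0.0889), or without Ctrl replicate 1 (adjusted p = 0.0634) or 2 at P45 (adjusted p = 0.0575).

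Rorb, the nuclear receptor of layer 4, gave 3.03, 2.79 and 2.14 FPKM in Ctrl at P1, 3.33 and 4.203 at P7, 3.14 and 2.84 at P14, and 13.8, 14.6 and 3.64 at P45. Replicates 1 and 2 at P45 were far above every younger Ctrl library, whereas replicate 3 lay between the 2 libraries of P7. In both genotypes, 19052 to 19137 genes reached 1 FPKM in replicates 1 and 2 at P45, where the other 16 libraries of the age table had 14088 to 14501, and its part in the values of P45 was not tested. Rorb rose from P1 to P45 (difference 1.497 ± 0.47, limma, adjusted p = 0.024), with a difference of 1.96 in replicates 1 and 2 and of 0.57 in replicate 3. The call was lost without Ctrl replicate 2 (adjusted p = 0.0527) or 3 at P1 (adjusted p = 0.0697), without Ctrl replicate 1 (adjusted p = 0.102) or 2 at P45 (adjusted p = 0.108), and with scaling to equal totals (adjusted p = 0.0694). From P14 to P45 the difference was 1.36 ± 0.53 and was not called (adjusted p = 0.144). It was 1.93 and called without Ctrl replicate 3 at P45 (adjusted p = 0.00903).

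Cux1 and Cux2, homeodomain factors of the Cut family, kept no common course over all libraries. Cux1 gave 7.95, 6.95 and 43.6 FPKM in Ctrl at P1, 6.14 and 6.96 at P7, 5.24 and 5.09 at P14, and 9.59, 8.61 and 21.3 at P45. Its replicate 3 stood apart at both ages, so the direction from P1 to P45 depends on the library set: it was -0.16 over all libraries, 0.26 in replicates 1 and 2 (adjusted p = 0.0102 in a fit that called 77.7% of all genes) and -0.997 in replicate 3. Cux2 gave 17.0, 15.2 and 30.4 FPKM at P1, 12.4 and 14.01 at P7, 12.7 and 12.7 at P14, and 20.05, 17.0 and 22.6 at P45. The P7 and P14 libraries of Cux2 were all below those of P1 and P45. No step of Cux2 was called in the fit to all libraries, and without replicate 3 at P1 and P45 it was lower at P7 than at P1 (difference -0.27, adjusted p = 0.0455) and higher at P45 than at P14 (difference 0.51, adjusted p = 0.000634).

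Neurod1, a basic helix-loop-helix factor of newly formed neurons, gave 8.39, 5.49 and 8.68 FPKM in Ctrl at P1, 7.57 and 8.78 at P7, 6.08 and 5.42 at P14, and 4.15, 5.12 and 5.95 at P45. The P45 and P1 groups overlapped by 1 library, since replicate 3 at P45 was above replicate 2 at P1. Neurod1 fell from P1 to P45 (difference -0.48 ± 0.17, limma, adjusted p = 0.0409). The call was lost without Ctrl replicate 1 (adjusted p = 0.125) or 3 at P1 (adjusted p = 0.129), and without Ctrl replicate 1 (adjusted p = 0.17) or 2 at P45 (adjusted p = 0.085). With the 2 compared groups fitted alone, Bcl11b was the 1 member that stayed called from P1 to P45.

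The steps between ages held fewer calls. From P1 to P7 Bcl11b and Foxp2 (2 of 9) fell, where 6.24% of all genes were called and 3.39% lower, and all 5 deep layer factors had negative differences (median -0.77, all genes -0.07). From P7 to P14 Bcl11b (1 of 9) fell, against 8.57% of all genes called and 3.95% lower. From P14 to P45 limma called 0 of 9 at an adjusted p under 0.05, against 8.18% of all genes. At an unadjusted p under 0.05 there were 2 of 9 members, against 5264 of 19733 genes. The upper layer factors had a median difference of 1.09 in that step and all genes 0.16. Counted by groups that do not overlap over all libraries, 5 members were lower and 1 higher at P7 than at P1 (28.3% and 16.5% of all genes), 6 lower and 0 higher at P14 than at P7 (37.7% and 33.1%), 5 higher and 0 lower at P45 than at P14 (21.7% and 16.3%), and 3 lower and 1 higher at P45 than at P1 (20.9% and 17.7%). Scaling moved the median of all genes by up to 0.10 between these ages, and the sign of Fezf2 from P1 to P7 (-0.13, and 0.03 by median ratio) depended on it.

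**Figure D1:**
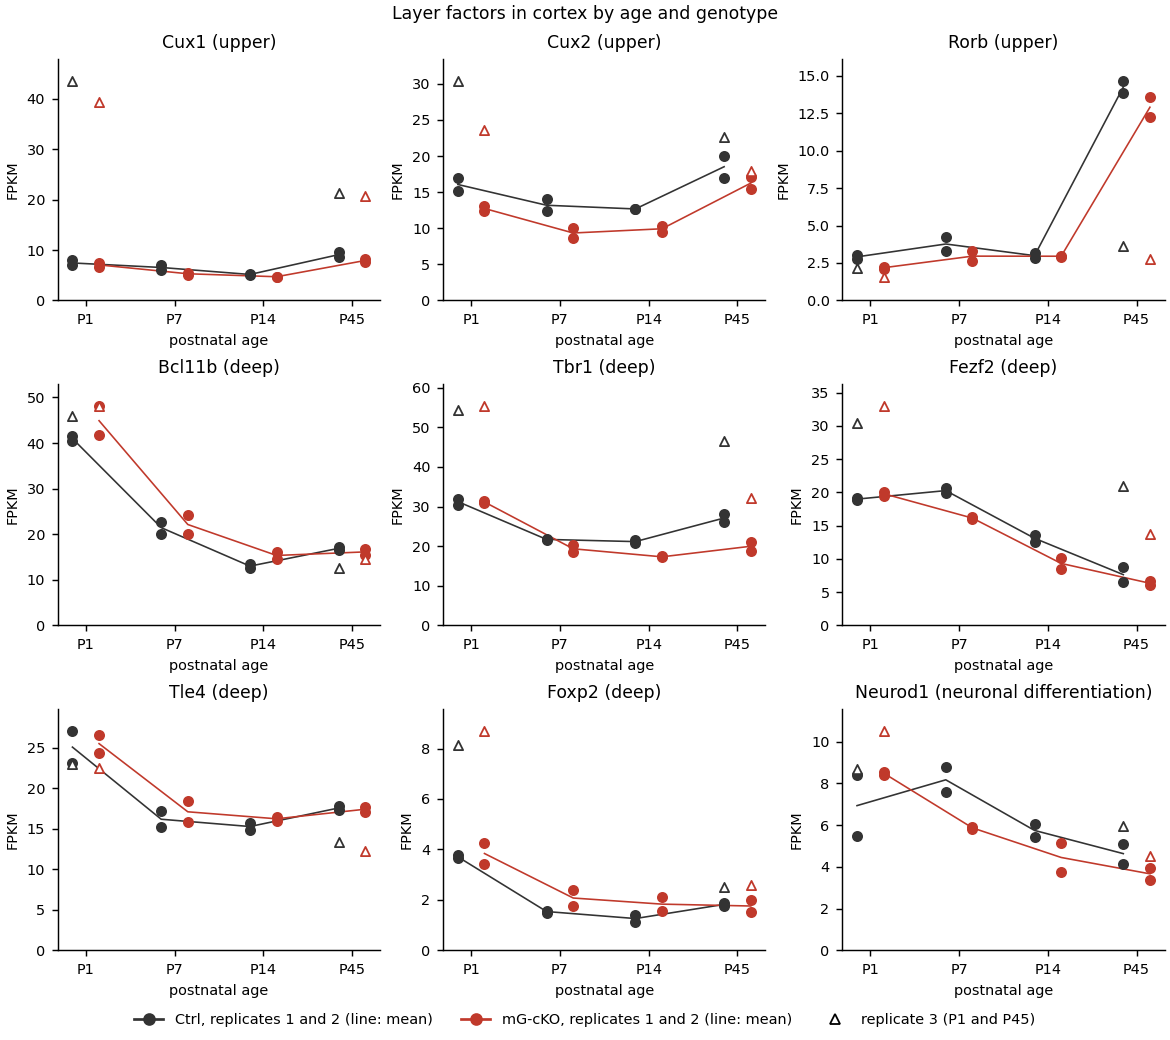
FPKM of each layer factor (vertical axis) in Ctrl (black) and mG-cKO (red) cortex at P1, P7, P14 and P45 (horizontal axis, ages evenly spaced), 1 symbol per library, with lines through the means of replicates 1 and 2 and open triangles for replicate 3 at P1 and P45. Bcl11b and Foxp2 are highest at P1 in all libraries, Rorb reaches 13.8 and 14.6 in replicates 1 and 2 of Ctrl at P45 but 3.64 in replicate 3, and Cux1 has its highest values, 43.6 and 39.4, in replicate 3 at P1.

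FPKM is scaled to gene length, but the 2 library sets differed by a ratio that varied by gene. In Ctrl at P1, replicate 3 gave 5.85 times the mean of replicates 1 and 2 for Cux1, 1.89 times for Cux2 and 0.73 times for Rorb. Cux1 was below Cux2 in replicates 1 and 2 (7.45 and 16.1) and above it in replicate 3 (43.6 and 30.4). The order below rests on means that mix both sets and is a description. In Ctrl at P1 the order by mean FPKM (± SD, n = 3) was Bcl11b 42.7 ± 2.95, Tbr1 39.0 ± 13.4, Tle4 24.4 ± 2.34, Fezf2 22.8 ± 6.64, Cux2 20.8 ± 8.32, Cux1 19.5 ± 20.9, Neurod1 7.52 ± 1.77, Foxp2 5.18 ± 2.55 and Rorb 2.65 ± 0.463. Each neighbouring pair in that order overlapped in its libraries except Tbr1 and Tle4, and Foxp2 and Rorb. At P45 Tbr1 led with 33.6 ± 11.3 and was followed by Cux2 (19.9), Tle4 (16.2), Bcl11b (15.5), Cux1 (13.2), Fezf2 (12.1), Rorb (10.7), Neurod1 (5.07) and Foxp2 (2.05). Between the 2 ages Bcl11b thus moved down the order of these pooled means, past Tbr1, Cux2 and Tle4. Cux2 moved up past Bcl11b, Tle4 and Fezf2, although the libraries of most neighbours overlap. In replicates 1 and 2 alone Rorb, at 14.2, stood above Cux1 (9.10) and Fezf2 (7.63) at P45.

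The second question of the design was what mG-cKO does to these genes at each age. In the fit to all libraries limma called none of the 9 at P1, P7, P14, P45 or P21, and 0 of 9 were at an unadjusted p under 0.05 in any of these 5 comparisons; over all genes 0.142%, 0.162%, 0.345%, 1.16% and 2.19% were called. The pooled spread at P1 and P45 contains the difference between library sets. With a term for that set, added after the data were seen, Cux2 was lower in mG-cKO at P1 and Tbr1 and Fezf2 were lower at P45. All 3 upper layer factors had negative differences at each of the 5 ages (medians -0.29 at P1, -0.27 at P7, -0.11 at P14 and -0.19 at P45, against 0.00, 0.00, -0.01 and 0.01 for all genes), except that scaling turned Rorb at P14 to 0.03. The deep layer factors were mixed, with medians of 0.05, 0.04, 0.08 and -0.05.

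Cux2 gave 12.4, 13.1 and 23.6 FPKM in mG-cKO at P1 against 17.0, 15.2 and 30.4 in Ctrl. It gave 8.65 and 10.04 against 12.4 and 14.01 at P7, 9.53 and 10.3 against 12.7 and 12.7 at P14, and 17.1, 15.4 and 17.9 against 20.05, 17.0 and 22.6 at P45. Within a library set every mG-cKO library was below every Ctrl library at P1, P7 and P14, while at P45 mG-cKO replicate 1 was marginally above Ctrl replicate 2. At P1 the difference was -0.32 ± 0.24 in the fit to all libraries (limma, adjusted p = 1) and -0.32 ± 0.07 with the library set as a term (adjusted p = 0.0433), a fit that called 1.83% of all genes. With the replicate number as a block it was -0.32 ± 0.05 (adjusted p = 0.0259, 0.917% of all genes called), and within replicates 1 and 2 alone it was -0.31 ± 0.10 and not called (adjusted p = 0.256, 0.39% of all genes called). Replicate 3 alone gave -0.35.

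At P7 the difference of Cux2 was -0.46 ± 0.30 (adjusted p = 1), and -0.46 ± 0.10 when replicate 3 of the other ages was left out of the spread (limma, adjusted p = 0.0374, 2.04% of all genes called). At P14 it was -0.32 and not called in either fit, with adjusted p of 1 and 0.0769. At P45 it was -0.22 ± 0.24 (adjusted p = 1), -0.22 ± 0.07 with the set term (adjusted p = 0.0563) and -0.22 ± 0.05 with the replicate block (adjusted p = 0.0221). Cux2 is a call in some of these fits and not in others at each age at which it was called, with the same sign in each. The fit without replicate 3 of other ages was not planned for the genotype comparisons at P7 and P14.

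Rorb was lower in mG-cKO than in Ctrl in every library of its set at P1, with 2.25, 2.12 and 1.59 FPKM against 3.03, 2.79 and 2.14. At P7 it gave 2.62 and 3.29 against 3.33 and 4.203, at P14 2.98 and 2.93 against 3.14 and 2.84, and at P45 13.6, 12.2 and 2.78 against 13.8, 14.6 and 3.64. The groups did not overlap within library sets at P1, P7 and P45, and they overlapped at P14. With the set term the difference was -0.29 ± 0.08 at P1 (limma, adjusted p = 0.0927) and -0.19 at P45 (adjusted p = 0.133), neither past the threshold. Cux1 gave 6.72, 7.40 and 39.4 FPKM in mG-cKO at P1 against 7.95, 6.95 and 43.6, and 8.21, 7.68 and 20.8 at P45 against 9.59, 8.61 and 21.3. It gave 5.14 and 5.46 against 6.14 and 6.96 at P7, and 4.74 and 4.69 against 5.24 and 5.09 at P14. Its differences, -0.09, -0.26, -0.11 and -0.13 from P1 to P45, were not called in any fit.

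Tbr1 was level between genotypes at P1, and its mG-cKO libraries lay lower within library sets at P7, P14 and P45, with calls in some fits only. It gave 31.4, 30.9 and 55.4 FPKM in mG-cKO at P1 against 32.0, 30.5 and 54.4 in Ctrl, 18.5 and 20.2 against 21.5 and 21.9 at P7, and 17.2 and 17.4 against 20.7 and 21.5 at P14. At P45 it gave 21.1, 18.9 and 32.2 against 28.1, 26.1 and 46.5. The groups overlapped at P1 and were apart within library sets at P7, P14 and P45. At P7 the difference was -0.16 ± 0.06 with replicate 3 of other ages left out, and not called (limma, adjusted p = 0.241). At P45 the difference was -0.45 ± 0.28 in the fit to all libraries (limma, adjusted p = 1), -0.45 ± 0.05 with the set term (adjusted p = 1.78e-05), -0.45 ± 0.04 with the replicate block (adjusted p = 8.2e-05) and -0.42 ± 0.06 within replicates 1 and 2 (adjusted p = 0.000927), and it was -0.52 in replicate 3. The last 3 fits called 16.7%, 13.9% and 11.9% of all genes. Scaling every library to the same total also gave a call (adjusted p = 0.0449).

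At P14 the difference of Tbr1 was -0.27 ± 0.35 (adjusted p = 1) and -0.27 ± 0.06 with the spread taken without replicate 3 of the other ages (limma, adjusted p = 0.0216, 5.91% of all genes called). The change of the genotype difference from P1 to P45 was tested as an interaction. In the fit to all libraries limma called 0 of 9 members for this interaction, against 0.36% of all genes. At an unadjusted p under 0.05 there was 1 member, against 576 of 19733 genes. For Tbr1 the interaction was -0.46 ± 0.40 in that fit, against -0.46 ± 0.07 with the set term (limma, adjusted p = 0.000818, 7.05% of all genes called), -0.46 ± 0.05 with the block (adjusted p = 0.00166, 5.26%) and -0.42 within replicates 1 and 2 (adjusted p = 0.0188, 4.17%).

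Fezf2 gave 19.5, 20.1 and 33.0 FPKM in mG-cKO at P1 against 18.8, 19.2 and 30.5 in Ctrl, so that mG-cKO was the higher within both sets. It was the lower at P7, with 16.0 and 16.2 against 20.6 and 19.9, and at P14, with 8.45 and 10.2 against 13.6 and 12.6. At P45 mG-cKO gave 6.67, 6.003 and 13.7 against 6.46, 8.81 and 20.97, and replicates 1 and 2 overlapped. The differences were 0.08, -0.31, -0.45 and -0.34, none called in the fit to all libraries. With the set term Fezf2 was called at P45 (difference -0.34 ± 0.10, limma, adjusted p = 0.0269), but not with the replicate block (-0.34 ± 0.11, adjusted p = 0.0685). In the fit without replicate 3 of other ages it was called at P14 (difference -0.45 ± 0.11, adjusted p = 0.0402). Its interaction of P45 against P1 was -0.42 ± 0.14 with the set term and missed the threshold (adjusted p = 0.0882).

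Bcl11b, Foxp2 and Tle4 had differences between 0.01 and 0.32 at P1, P7 and P14, none of them called. Bcl11b gave 41.8, 48.0 and 48.1 FPKM at P1 against 40.5, 41.5 and 46.0, 24.3 and 19.98 at P7 against 20.1 and 22.8, 16.0 and 14.6 at P14 against 13.5 and 12.5, and 15.4, 16.9 and 14.6 at P45 against 16.5, 17.3 and 12.6. Foxp2 gave 3.43, 4.25 and 8.70 at P1 against 3.65, 3.77 and 8.12, 2.38 and 1.77 at P7 against 1.498 and 1.58, 2.11 and 1.55 at P14 against 1.38 and 1.13, and 1.52, 1.998 and 2.58 at P45 against 1.77, 1.88 and 2.51. Both mG-cKO libraries were above both Ctrl libraries for Foxp2 at P7 and for Bcl11b, Foxp2 and Tle4 at P14, and none of these differences was called in any fit. Summed FPKM of the striatal markers ran from 59.3 to 104.6 in mG-cKO and from 46.0 to 67.4 in Ctrl at P7, and from 194.1 to 295.8 against 129.8 to 180.4 at P14, and its part in the levels of these genes was not tested. Tle4 gave 24.4, 26.6 and 22.5 at P1 against 23.1, 27.1 and 23.0, 16.4 and 16.01 at P14 against 15.7 and 14.8, and 17.7, 17.1 and 12.2 at P45 against 17.3, 17.8 and 13.4, and its differences lay between -0.05 and 0.08 at the 4 ages.

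Neurod1 gave 8.58, 8.42 and 10.5 FPKM in mG-cKO at P1 against 8.39, 5.49 and 8.68 in Ctrl. At P7 it gave 5.84 and 5.90 against 7.57 and 8.78, at P14 3.76 and 5.14 against 6.08 and 5.42, and at P45 3.97, 3.37 and 4.54 against 4.15, 5.12 and 5.95. Within library sets mG-cKO was the higher genotype at P1 and the lower at P7, P14 and P45. The differences were 0.27 ± 0.17, -0.41 ± 0.21, -0.32 and -0.29 ± 0.17, none of them called in any fit, and the interaction of P45 against P1 with the set term was -0.56 ± 0.18 (limma, adjusted p = 0.0795). Summed FPKM of 7 progenitor markers ran from 43.4 to 51.6 in mG-cKO and from 56.5 to 65.2 in Ctrl at P1, and its part in the result was not tested.

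Across these ages the shares of all genes whose groups stayed apart within library sets were 12.8% higher and 12.2% lower at P1, 20% and 22.4% at P7, 23.5% and 28.7% at P14, and 19.5% and 15.6% at P45. Of the 9 members, 3 were apart and higher and 2 apart and lower at P1, 1 and 6 at P7, 3 and 5 at P14, and 0 and 4 at P45. Summed FPKM of 6 excitatory neuron markers ran from 1193 to 1214 in mG-cKO at P14 against 1486 to 1517 in Ctrl, and that of 4 oligodendrocyte markers from 129.8 to 144.6 against 504.3 to 559.6. Their part in the lower values at P14 was not tested. At P45 the oligodendrocyte markers summed to 77.4 to 355.2 in mG-cKO against 363.8 to 1597 in Ctrl, with 3 of 4 called lower. Pooled over both library sets, the excitatory neuron markers summed there to 831.2 to 2195 against 928.5 to 2636 (means 1302 and 1503). The 4 astrocyte markers, of which Aqp4 was called higher, summed to 126.6 to 263.96 against 104.9 to 210.9 (means 175.5 and 141.4). Both pairs of pooled ranges overlap, but these sums were not compared within library sets as the members were. At P21 the oligodendrocyte markers summed to 216.8 to 384.1 against 2053 to 3413, with 4 of 4 called lower. Their part in the values at P45 and P21 was not tested. Summed FPKM of 4 dentate gyrus and hippocampus markers ran from 21.4 to 23.4 in mG-cKO against 15.7 to 17.1 in Ctrl at P7. At P14 it ran from 39.3 to 40.9 against 30.9 to 32.3. The pooled ranges overlapped at P1 and P45, and its part was not tested. Summed FPKM of 4 choroid plexus markers was 1.002 and 244.5 in the 2 Ctrl libraries of P7, against 1.54 and 2.33 in mG-cKO. At P14 it was 6.37 and 244.8 in Ctrl against 3.49 and 5.25. A single Ctrl library thus carried the high sum at P7 and at P14. At P1 and P45 all mG-cKO sums lay above all Ctrl sums. The part of the choroid plexus sums in the genotype and age comparisons was not tested.

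**Figure D2:**
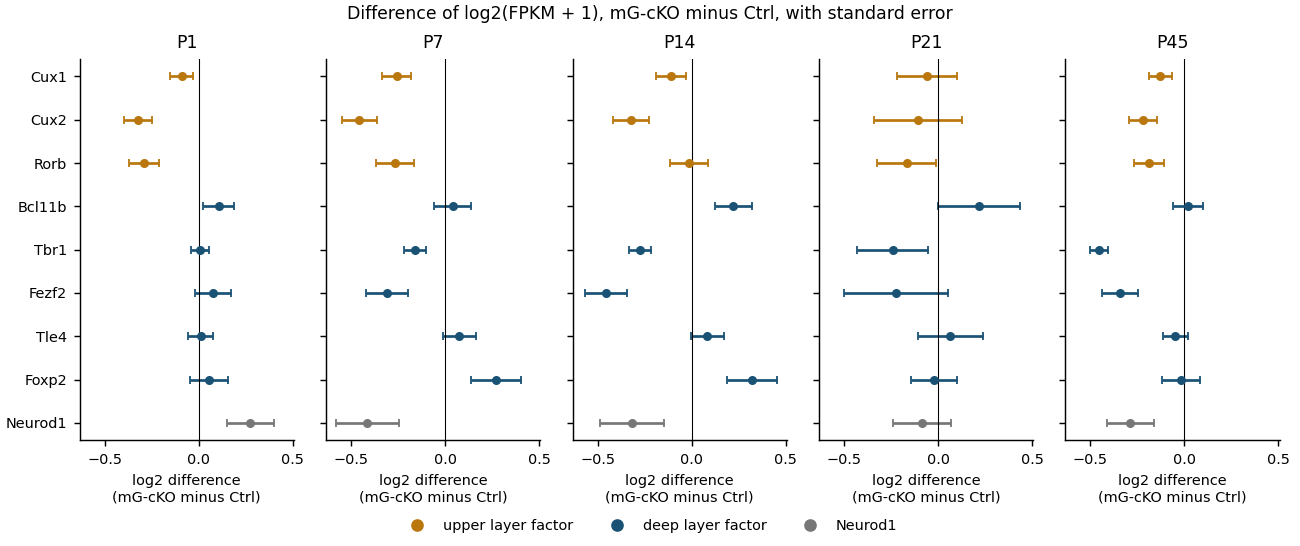
Difference of log2(FPKM + 1), mG-cKO minus Ctrl (horizontal axis), for each member at 5 ages, with 1 standard error either side; at P1 and P45 the fit holds the library set as a term, at P7 and P14 the spread leaves out replicate 3 of other ages, and at P21 the fit holds all libraries of that table. The upper layer factors lie left of 0 at every age, Tbr1 moves from 0.01 at P1 to -0.45 at P45, and the widest errors are at P21.

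At P21, in a separate table, limma called 0 of 9 members between mG-cKO and Ctrl, against 2.19% of all genes. Tbr1 gave 24.5, 23.7 and 35.8 FPKM in mG-cKO against 29.2, 34.5 and 34.7 in Ctrl, a difference of -0.24 ± 0.19 (limma over 16420 genes, adjusted p = 0.794), which was the smallest adjusted p of the 9. Cux2 gave 12.3, 15.2 and 17.9 against 12.5, 18.1 and 18.6 (difference -0.11 ± 0.24), and Fezf2 11.8, 13.97 and 20.7 against 17.2, 12.7 and 25.7 (difference -0.22 ± 0.28). The groups overlapped for all 9 members, where 9.81% of genes were apart and higher and 4.69% apart and lower.

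In mG-cKD, titled heterozygous, Bcl11b gave 9.99, 11.6 and 9.80 FPKM against 7.48, 8.60 and 7.80 in Ctrl. The 3 mG-cKD libraries were above the 3 of Ctrl, as for 2.56% of all genes, and the difference of 0.35 ± 0.22 was not called (limma, adjusted p = 1). No gene of the table was called between mG-cKD and Ctrl by limma, with 231 genes and 0 members at an unadjusted p under 0.05. Between mG-cKO and mG-cKD, where 1.53% of genes were called, 0 of 9 members were, and Tle4 was apart, with 11.6, 10.02 and 11.5 in mG-cKO against 12.4, 12.2 and 11.8 in mG-cKD, as were 4.49% of genes in that direction. Upper layer Cux1 gave 19.7, 18.0 and 23.98 in Ctrl, 16.5, 17.6 and 20.6 in mG-cKD and 17.0, 19.3 and 22.8 in mG-cKO, with all 3 groups overlapping.

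RTI was compared with no RTI within each genotype, and no member was called. In mG-cKO with RTI Cux2 gave 6.73, 12.6 and 14.2 FPKM against 12.3, 15.2 and 17.9 without, a difference of -0.45 ± 0.24 (limma, adjusted p = 0.962). Its lowest library, replicate 1, was the lowest Cux2 value of the P21 table, and without it the difference was -0.15. Foxp2 gave 2.27, 2.57 and 2.36 with RTI against 2.19, 1.71 and 2.10 without, and the groups did not overlap, as for 4.65% of all genes. In mG-cKD, RTI went with 9.44, 16.4 and 13.7 for Fezf2 against 15.8, 15.4 and 19.7 (difference -0.36 ± 0.28, not called), and no gene of the table was called by limma, with 353 at an unadjusted p under 0.05. The difference between the RTI effects of mG-cKO and mG-cKD, -0.39 ± 0.33 for Cux2, was called for 0 genes of the table by limma, with 245 genes and 0 members at an unadjusted p under 0.05, and for Cux2 it was -0.09 without replicate 1 of mG-cKO with RTI. In mG-cKO limma called 0.00609% of all genes between RTI and no RTI.

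Against Ctrl, mG-cKO with RTI held the widest member differences of the P21 table. Bcl11b gave 9.22, 12.8 and 13.9 FPKM against 7.48, 8.60 and 7.80, and Foxp2 2.27, 2.57 and 2.36 against 2.02, 2.05 and 2.04, with the 3 treated libraries above the 3 of Ctrl for both, as for 11.5% of all genes. The difference was 0.52 ± 0.22 for Bcl11b (limma, adjusted p = 0.299) and -0.56 ± 0.24 for Cux2 (adjusted p = 0.307), the latter -0.26 without replicate 1 of mG-cKO with RTI. These 2 genes had an unadjusted p under 0.05, as did 2263 of 16420 genes, and 0 of 9 were called against 2.3% of all genes. Tbr1 gave 30.8, 22.8 and 22.1 against 29.2, 34.5 and 34.7 (difference -0.38 ± 0.19, adjusted p = 0.406). The Ctrl and mG-cKO libraries are shared by several of these comparisons, so their values are set side by side only. Striatal marker sums overlapped among the P21 groups, with 150.9 to 493.8 FPKM in Ctrl and 178 to 346.4 in mG-cKO with RTI. Choroid plexus markers summed to 9.1 to 521.5 in mG-cKO with RTI, 4.05 to 79.4 in mG-cKO and 2.07 to 71.3 in Ctrl, ranges that overlap, and their part was not tested.

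**Figure D3:**
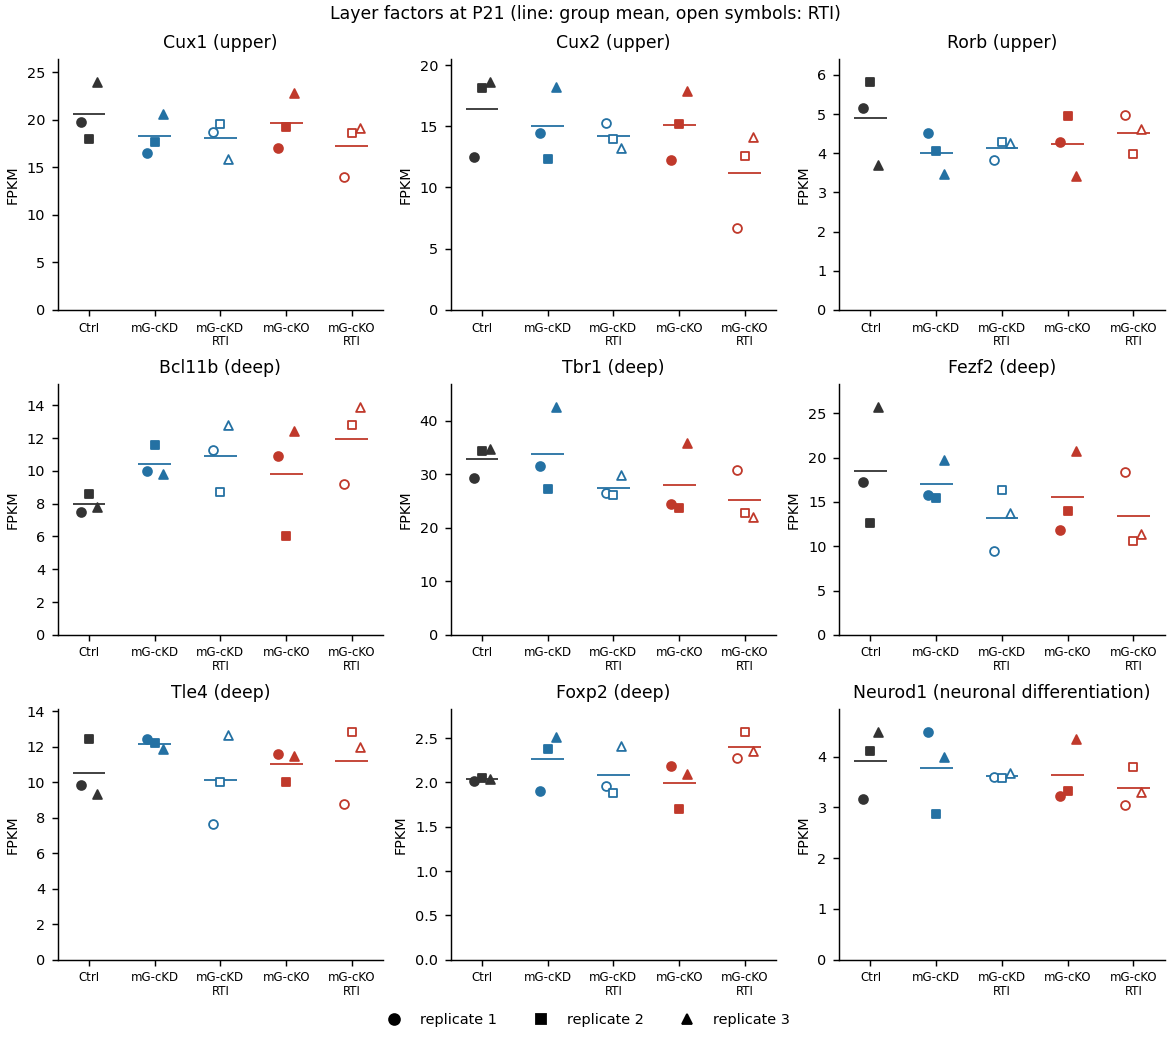
FPKM of each layer factor (vertical axis) at P21 in Ctrl, mG-cKD, mG-cKD with RTI, mG-cKO and mG-cKO with RTI (horizontal axis), 1 point per library with the group mean as a bar. The groups overlap for most members, and in Bcl11b the 3 Ctrl libraries, 7.48 to 8.60, lie below all libraries of mG-cKD and of both RTI groups.

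In the table of CT and VPA cortex at P1, Neurod1 gave 7.71, 8.98 and 13.9 FPKM in CT and 9.99, 8.56 and 10.4 in VPA. Rorb gave 2.95, 3.05 and 2.40 in CT and 2.47, 2.48 and 2.32 in VPA. The groups overlapped for both genes, and the differences were -0.04 ± 0.24 for Neurod1 (limma over 11264 genes, adjusted p = 0.929) and -0.15 ± 0.16 for Rorb (adjusted p = 0.558). Limma called 0 genes of that table, with 2644 genes and 0 of the 2 members at an unadjusted p under 0.05, and all differences are relative to a median of 0.12 over all genes, which scaling to equal totals moved by -0.27.

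The NPC libraries, which had no comparison, held another set of factors. Tle4 gave 27.6, 8.13 and 41.3 FPKM and Cux1 6.16, 5.64 and 27.8, and these 2 genes led the order with means of 25.7 and 13.2. Rorb followed with 6.17, 3.32 and 3.60. Bcl11b gave 1.20, 0.237 and 3.12, and Cux2 1.34, 1.22 and 1.98. The neuronal factors were lower still, with 0.300, 0.136 and 0.800 for Neurod1, 0.211, 0.106 and 0.250 for Foxp2, 0.0852, 0.0226 and 0.120 for Tbr1, and 0.0192, 0 and 0.05 for Fezf2. In the 2 libraries of known depth these stand on 2 to 8 reads for Tbr1 and 0 to 1 for Fezf2. Progenitor markers summed to 184.9 to 449.5 FPKM and excitatory neuron markers to 23.5 to 68.3 in these libraries.

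The balance of the 2 layer groups was described by an index, the mean log2(FPKM + 1) of the 3 upper layer factors minus that of the 5 deep layer factors, with no test. In Ctrl it was -1.19, -1.38 and -0.79 at P1, -0.87 and -0.68 at P7, -0.68 and -0.65 at P14, and 0.39, 0.20 and -0.14 at P45. All P45 libraries lay above all younger ones, and the group mean went from -1.12 ± 0.30 (SD, n = 3) at P1 to 0.15 ± 0.27 at P45. In mG-cKO it was -1.52, -1.60 and -1.09 at P1, -1.23 and -0.94 at P7, -0.82 and -0.76 at P14, and 0.35, 0.22 and -0.16 at P45. Within library sets each mG-cKO library lay below each Ctrl library at P1, P7 and P14, with group differences of -0.28, -0.31 and -0.13, and the genotypes were level at P45, with a difference of -0.01. The difference at P14 was 0.07 when Bcl11b and Foxp2 were left out of the deep group. With medians of the members in place of means it was -0.057 at P7 and -0.32 at P14. Leaving out 1 library in turn, the difference at P1 ran from -0.44 without mG-cKO replicate 3 to -0.12 without Ctrl replicate 3, and at P7 from -0.46 without mG-cKO replicate 2 to -0.16 without mG-cKO replicate 1. It ran from -0.16 to -0.10 at P14 and from -0.16 to 0.14 at P45.

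At P21 the index was 0.14, 0.25 and 0.12 in Ctrl, -0.05, -0.16 and -0.13 in mG-cKD, -0.01, 0.39 and -0.08 in mG-cKO, and -0.38, -0.05 and 0.08 in mG-cKO with RTI. The mG-cKD libraries lay below all 3 of Ctrl, and mG-cKO overlapped Ctrl. In mG-cKD with RTI it was 0.24, 0.13 and -0.20, spanning both. In NPC it was 1.02, 1.26 and 1.27. There the deep layer factors Tbr1, Fezf2 and Foxp2 had means of 0.08, 0.02 and 0.19 FPKM. Deep layer Tle4 was the highest member at 25.7 and upper layer Cux2 had 1.51, so the NPC index is not read as a balance of layers.

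**Figure D4:**
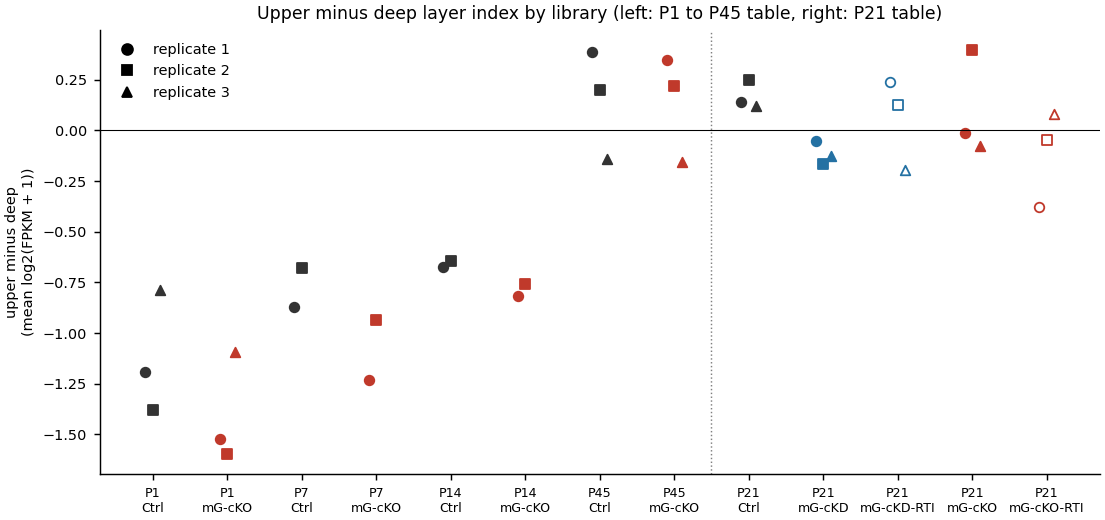
Upper minus deep index, mean log2(FPKM + 1) of Cux1, Cux2 and Rorb minus that of Bcl11b, Tbr1, Fezf2, Tle4 and Foxp2 (vertical axis), 1 symbol per library, by group (horizontal axis). The index is negative in all libraries at P1, P7 and P14, between -0.38 and 0.39 at P21 and between -0.16 and 0.39 at P45.

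Other layer markers were read from 2 lists, 15 further upper layer genes and 16 further deep layer genes. Between mG-cKO and Ctrl at P1 the median differences were -0.08 for the upper layer list and 0.07 for the deep layer list, and limma called 0 of 15 tested deep layer genes. With the set term 5 of 15 tested upper layer genes, among them Mdga1, Pou3f1, Pou3f2 and Pou3f3, were lower at P1 and 1 of 15 deep layer genes, Crym, was higher, where 1.83% of all genes were called. At P45 that fit called 2 of 15 tested upper layer genes higher and 6 lower, and 2 of 15 tested deep layer genes higher and 4 lower, where 16.7% of all genes were called. At P21 the one call between mG-cKO and Ctrl among these lists was Scnn1a, a sodium channel subunit of layer 4, with 0.434, 0.615 and 1.14 FPKM against 1.56, 1.97 and 2.47. It fell (difference -0.80 ± 0.18, limma, adjusted p = 0.0253) and lost the call without Ctrl replicate 2 (adjusted p = 0.0725) or 3 (adjusted p = 0.132), or without mG-cKO replicate 1 (adjusted p = 0.149) or 2 (adjusted p = 0.11). In Ctrl from P1 to P45, 5 of 15 tested upper layer genes rose and 5 fell, and 1 of 15 tested deep layer genes rose and 5 fell, where 17.2% of all genes rose and 19.4% fell.

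The genes whose levels ran most like each member were ranked by the lower of 2 Pearson correlations of log2(FPKM + 1), over the 20 libraries of the age table and the 15 of the P21 table, among 12139 genes. The libraries share depth and library set, so these are descriptions. For Fezf2 they were Plekho1 (0.93), Pdap1 (0.91) and Cfl1 (0.91), for Tle4 Gpr21 (0.88), Grik3 (0.80) and St6gal2 (0.79), and for Cux1 Mir9-3hg (0.88), Mkl1 (0.85) and Brsk2 (0.85). For Cux2 they were Arhgef11 (0.87), Zmynd8 (0.85) and Mical3 (0.83), for Bcl11b Nrp2 (0.85), Dach1 (0.83) and Usp22 (0.80), and for Tbr1 Cdc5l (0.85), Dopey2 (0.82) and Limk1 (0.81). Rorb was nearest to Zadh2 (0.74), Kcns2 (0.74) and Spred1 (0.73), Neurod1 to Fam131c (0.72) and Arvcf (0.72) among those reported, and Foxp2 to Zswim5 (0.71), Jpt2 (0.69) and Hs6st2 (0.68). Among the members Cux1 and Cux2 correlated at 0.88 over the age table and 0.78 over the P21 table, Bcl11b and Tle4 at 0.90 and 0.43, and Fezf2 and Tbr1 at 0.66 and 0.69, while Fezf2 and Rorb gave -0.79 and -0.27.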

How the data were processed

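The authors deposited FPKM per gene in 4 tables of 54100 (age), 55401 (P21), 48785 (CT and VPA) and 16291 (NPC) genes. Per the submitters' processing notes the mm10 build, featureCounts 2.0.4, STAR 2.5.3a and Trim Galore 0.6.5 were used, with no role given, and per the labels' protocols RNA was extracted with TRIzol and libraries made with an NEB Next Ultra RNA kit. Of 48 labelled samples, 44 were analysed; the P7 and P14 samples numbered 3 were not analysed here. Depth is known only where FPKM times GENCODE M21 exon length gave whole reads within 0.05 reads: 97.2% to 99.2% of low values in 23 libraries; in the other 21 no common step was found, or it held for at most 13.8%. The 23 held 13.5 to 30.9 M reads by that measure. FPKM summed to 238106 to 258920 per library in the 16 age libraries with whole reads and to 364520 to 381834 in the other 4.

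Fits were made table by table with limma 3.58.1 (trend and robust, statmod 1.5.0, R 4.3.3) on log2(FPKM + 1), over genes averaging 0.5 FPKM or more in the table, with Benjamini-Hochberg adjusted p under 0.05 as the threshold. All 9 members passed the filter in the age and P21 tables and 2 in the CT and VPA table. The fit was tested on simulated data. Tables and figures were made in Python 3.11.15 (matplotlib 3.10.9, pandas 2.3.3, numpy 2.4.6). Every member was named in the text, with the 3 genes most like it, and the other layer genes that were called; some genes this rule names are not reported here. Members and lists were chosen with earlier results of these data known.

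Replicate numbers come from the titles, and the labels state no pairing. Same-numbered libraries deviated together in some comparisons and not in others, by the correlation across genes of their deviations from group means (numbers 1, 2, 3 in order). It was 0.584, 0.556, 0.665 between Ctrl at P45 and P1, and 0.522, 0.331, 0.693 between mG-cKO and mG-cKD. Between mG-cKO and Ctrl it was 0.157, 0.125, 0.698 (P21), 0.871, 0.887, 0.969 (P45) and 0.782, 0.710, 0.942 (P1). For RTI against none it was 0.119, 0.261, 0.0185 in mG-cKD and -0.0430, -0.317, -0.181 in mG-cKO. Between mG-cKD and Ctrl it was 0.126, -0.137, 0.610, and between VPA and CT 0.0648, -0.0680, -0.0132. At P1 and P45 number 3 is also the library set without whole reads. It shifts the group means there, so the values of numbers 1 and 2 at those ages carry it too and do not show pairing. Alternatives were the pseudocount, filter, scaling, variance model, groups alone, replicate block, leaving out each library, and the library set. The term for that set was chosen after seeing the data. The fit without replicate 3 at P1 and P45 was also not planned where it compared groups of P7 and P14 only.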

Additional observations from a re-analysis of the deposited data

Results flagged for a closer look

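Tbr1 differed between ages in its response to mG-cKO. With the library set as a term, the log2 difference of mG-cKO against Ctrl at P45 minus that at P1 was -0.46 (limma interaction, adjusted p = 0.000818), while the fit to all libraries did not call it.

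Fezf2 and Neurod1 moved one way in all mG-cKO libraries of a set at P1 and the other way at P7 and P14, and Neurod1 also at P45. Such separation was common: 12.8% of all genes were apart and higher at P1. The shares apart and lower were 22.4% at P7, 28.7% at P14 and 15.6% at P45. For Fezf2 the difference was 0.08 (0.0752) at P1, -0.31 at P7 and -0.45 at P14, and it was -0.34 at P45, where replicates 1 and 2 overlapped. For Neurod1 it was 0.27 at P1, -0.41 at P7, -0.32 at P14 and -0.29 at P45. The difference between P1 and P7 or P14 was not tested for either gene, and the interaction of P45 against P1 with the set term missed the threshold for Neurod1 (difference -0.56, adjusted p = 0.0795) and Fezf2 (difference -0.42, adjusted p = 0.0882).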

How the results depend on the processing

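Over all alternatives 2076 differences of members were recomputed: 38 calls were lost, 43 were gained and 1 turned, and 139 uncalled differences crossed 0 and stayed uncalled. The difference that turned was Cux1 from P1 to P45 in Ctrl, at 0.26 with replicates 1 and 2 only. The cause was not tested for any of these.

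The number of called members moved as follows. For mG-cKO against Ctrl at P1 it went from 0 to 1 with the library set as a term. At P7 it went from 0 to 1, and at P14 from 0 to 2, with replicates 1 and 2 only at P1 and P45. At P45 it went from 0 to 1 with TPM scaling or replicates 1 and 2 only, and to 2 with the set term. Of all genes, the set term called 1.83% at P1 and 16.7% at P45. With replicates 1 and 2 only, 2.04% were called at P7, 5.91% at P14 and 11.9% at P45. The interaction of P45 against P1 went from 0 to 1 with replicates 1 and 2 only (4.17% of all genes called) and with the set term (7.05%). In Ctrl from P1 to P7 it went from 2 to 1 without a filter, 0 with the compared groups alone and 6 with replicates 1 and 2 only. From P7 to P14 it went from 1 to 0 with TPM or median ratio scaling, 4 with groups alone and 3 with replicates 1 and 2 only. From P14 to P45 it went from 0 to 1 with TPM scaling and 6 with replicates 1 and 2 only. From P1 to P45 it went from 6 to 1 with groups alone, 4 without a filter or with TPM scaling, 5 by median ratio and 8 with replicates 1 and 2 only. In Ctrl the fit with replicates 1 and 2 only called 39.8% of all genes from P1 to P7 and 44.5% from P7 to P14. It called 67% from P14 to P45 and 77.7% from P1 to P45, so the higher member counts came with high shares of all genes. Leaving out 1 library in turn gave 1 to 2 from P1 to P7, 0 to 1 from P7 to P14, 0 to 1 from P14 to P45 and 2 to 6 from P1 to P45, and 0 throughout for mG-cKO against Ctrl.

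With the replicate number as a block the count became 1 at P1, 1 at P7, 2 at P14 and 2 at P45 for mG-cKO against Ctrl, 1 for the interaction, and 4 from P1 to P7, 2 from P7 to P14, 3 from P14 to P45 and 7 from P1 to P45 in Ctrl. The shares of all genes called by genotype were 0.917%, 1.52%, 4.54% and 13.9% in that order, and 5.26% for the interaction. In Ctrl they were 23%, 25.8%, 46.1% and 67.9% in the order given. At P7 and P14 the libraries share only a number (correlations of 0.0141 and 0.0702 at 2 numbers each), and there the block called Cux2 at P7 and Cux2 and Tbr1 at P14, but not Fezf2 at P14 (adjusted p = 0.0968). At P21 and for VPA the block changed no member's call.

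The index of upper minus deep factors moved where the summary changed. With medians in place of means it was -0.0574 for mG-cKO against Ctrl at P7 and -0.32 at P14, -0.395 from P1 to P7, 0.29 from P7 to P14 and 1.25 from P14 to P45 in Ctrl, and -0.645 for mG-cKO with RTI against Ctrl. Without Bcl11b and Foxp2 it was 0.0666 at P14, 0.11 from P1 to P7, -0.215 for mG-cKD against Ctrl and -0.0543 for mG-cKO with RTI against Ctrl. At P14 it was -0.17 with a pseudocount of 0.1 and -0.16 with TPM scaling, and from P1 to P45 it was 1.58 with replicates 1 and 2 only. Depth limits Fezf2 and Tbr1 in NPC, where 1 library of known depth holds 0 reads for Fezf2.

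Scaling moved the split of called genes in Ctrl. From P1 to P7 the calls were 564 higher and 668 lower, 1007 and 519 by median ratio. From P14 to P45 they were 702 and 913, and 567 and 1267 with TPM scaling. For mG-cKO with RTI against Ctrl they were 215 and 162, and 171 and 209 by median ratio.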
